A study of Saccharomyces cerevisiae with 4 samples.

Results

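The genes described here encode the enzymes that remove hydrogen peroxide, lipid peroxides and superoxide in budding yeast, Saccharomyces cerevisiae, and a thioredoxin that keeps some of them reduced. They are the glutathione peroxidase-type genes GPX1, GPX2 and HYR1, the peroxiredoxin genes TSA1 and TSA2, the thioredoxin gene TRX2, the catalase genes CTT1 and CTA1, and the superoxide dismutase genes SOD1 and SOD2. The 10 genes were picked by name, with earlier results of these data known. They come from 5656 genes that the platform annotation pairs with a probe set of their own. Each is read by 1 probe set whose name carries no mark of shared sequence. RNA was measured on 4 arrays, 2 from wild-type cultures and 2 from cultures of a strain with histone H3 in which lysines 4, 36 and 79 are arginine (H3 K4,36,79R), all at 0 h. The study grew cells in galactose and moved them to glucose to shut off wild-type H3. The cultures here come before that move, in selective galactose medium at mid-log phase, so wild-type H3 was still being made in the mutant strain as well. The labels give neither the strain background nor how the mutant H3 gene is carried, and no probe set tells the mutant H3 copy from the wild-type one. The comparison asks whether transcripts of this defence system already differed between the strains before mutant H3 became the sole H3.

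Superoxide formed by respiration is converted by superoxide dismutases to hydrogen peroxide, which catalases, peroxiredoxins and glutathione peroxidases then reduce to water. Peroxiredoxins and the glutathione peroxidases of yeast take their electrons mainly from thioredoxin, which thioredoxin reductase recharges with NADPH. Many of these genes are controlled by Yap1 and Skn7, which respond to peroxide, and some, CTT1 among them, by Msn2 and Msn4, which respond to many stresses. Lysines 4, 36 and 79 of H3 are methylated by Set1, Set2 and Dot1 on transcribed genes.

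The deposited signals are linear MAS5 intensities, the summary values of Affymetrix software, with array medians from 38.6 to 47.6. For testing, signals were taken as log2(signal + 2), each array was centred on its median, and strains were compared with limma over 4576 genes. Wild-type values are whole multiples of 0.1, whereas mutant values step by 0.0839 on replicate 1 and by 0.0960 on replicate 2, as if each mutant array had been multiplied by 0.839 or 0.960 after rounding; no source used here states such a step. If so, deposited signals and control sums carry that factor between strains, and centring takes it out apart from the added pseudocount. The dimmest tested gene had a mean signal of 24.95, and dimmer genes were not tested. Log2 levels between replicates differed with an SD of 0.43 for the wild-type pair and 0.27 for the mutant pair. The arrays also differed in control probe sets: the summed signal of 10 probe sets for ribosomal RNA was 1280 and 1343 on the wild-type arrays against 585 and 413 on the mutant arrays. Actin 3′ over 5′ ratios were 1.53 and 1.40 against 1.81 and 1.53. The part of either in the differences below was not tested. The gene that differed most between the strains was URA3, a common selection marker, at 14.1 and 14.6 for wild-type and 594 and 643 for mutant cultures. The strains therefore differed in the signal of this marker as well as in H3. The part of that in the differences below was not tested.

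Of the 10 genes, GPX1 and CTT1 had higher signals on both mutant arrays than on both wild-type arrays. After centring, 21% of all tested genes were higher in the mutant without overlap, and 18.5% were lower without overlap. From the centred log2(signal + 2) levels, GPX1 was 2.01-fold and CTT1 1.53-fold higher in the mutant, and neither passed the test. The centred levels of HYR1, TSA1, TSA2, TRX2, SOD1 and SOD2 overlapped between the strains. GPX2 and CTA1 lay below the lowest tested signal in all 4 cultures, GPX2 lower on both mutant arrays and CTA1 with overlap. Limma called 0 of the 8 tested genes at an adjusted p under 0.05, a threshold passed by 0.0437% of all tested genes (2 of 4576). An unadjusted p under 0.05 was found for 2 of the 8, against 8.52% of all tested genes. The set was chosen with earlier results of these data known, so this comparison cannot serve as a test of it.

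**Figure D1:**
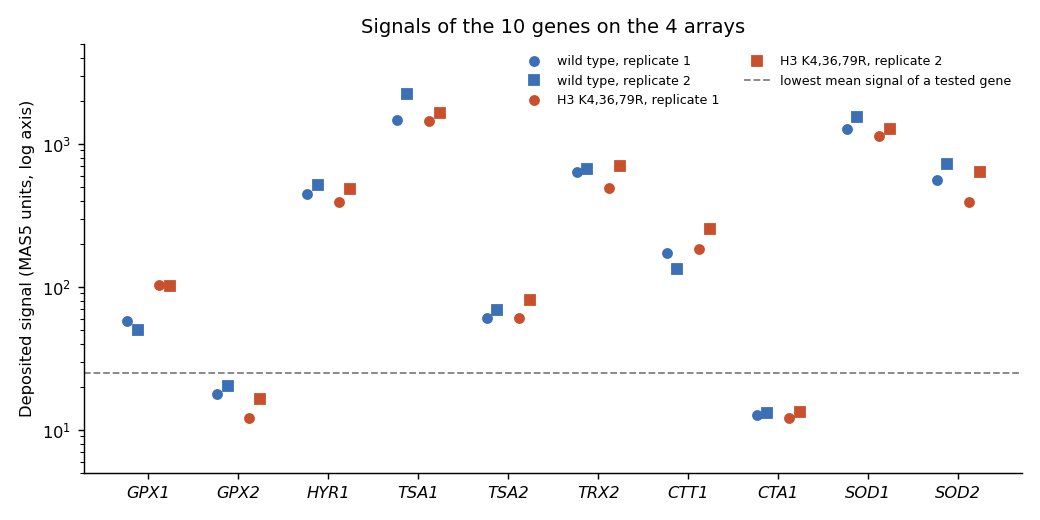
Deposited signal (log axis) of each of the 10 genes on the 4 arrays, wild type in blue and H3 K4,36,79R in orange, with circles for replicate 1 and squares for replicate 2. The mutant signals of GPX1 (103 and 101) and CTT1 (184 and 256) lie above both wild-type signals, and GPX2 and CTA1 lie under the dashed line at 24.95, the lowest mean signal of a tested gene; heights of different probe sets are not comparable as transcript levels.

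GPX1 (YKL026C) encodes a phospholipid hydroperoxide glutathione peroxidase. Deposited signals for GPX1 were 58.0 and 49.7 (wild-type cultures) and 103 and 101 (mutant cultures). The 2 strains were far apart for this gene relative to their replicates: after centring, the gap between the lower mutant and the higher wild-type array was 0.85 on the log2 scale, whereas the wild-type replicates lay 0.14 apart and the mutant replicates 0.17 apart. Wild-type cultures had a mean log2 level of 5.75 ± 0.10 and mutant cultures one of 6.75 ± 0.12 (SD, with n = 2 in each strain). The difference was 1.01 (SE 0.19, 95% interval 0.57 to 1.44) with an unadjusted limma p of 0.000755, the 22nd smallest among the tested genes, and an adjusted p of 0.157. GPX1 therefore missed the threshold, and with 2 arrays a group an exact permutation test cannot give a two-sided p below 0.333. Its difference stayed between 0.92 and 1.09 when any one array was left out.

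The other genes of this family were not higher in the mutant. HYR1 (YIR037W), also called GPX3, encodes the peroxidase that senses hydrogen peroxide and passes the signal to Yap1. Wild-type cultures gave 445 and 517, and mutant cultures 395 and 486. After centring, both mutant arrays fell between the wild-type arrays, and the log2 difference was -0.02 (SE 0.18, interval -0.44 to 0.39, adjusted p = 0.987). Leaving out wild-type replicate 1 gave -0.17, and leaving out its partner, replicate 2, gave 0.12. GPX2 (YBR244W), a further glutathione peroxidase gene and a known target of Yap1 and Skn7, was dim, at 17.9 and 20.4 for wild-type and 12.2 and 16.3 for mutant cultures. Both mutant values were below both wild-type values, also after centring, the direction opposite to GPX1. These low values stand under the filter, and with no filter the log2 difference was -0.30 (SE 0.25, adjusted p = 0.777). Whether the difference of GPX1 is larger than that of HYR1 or GPX2 was not tested.

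**Figure D2:**
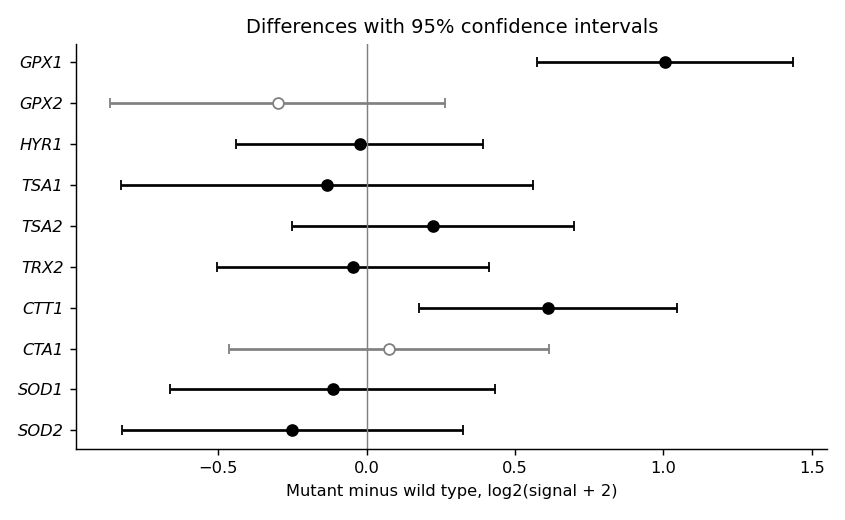
Mutant minus wild-type difference in log2(signal + 2) for each gene, as a point with its 95% limma confidence interval from 2 arrays per group; open grey points are GPX2 and CTA1, from the fit without a filter on low signals. The intervals of GPX1 (0.57 to 1.44) and CTT1 (0.18 to 1.05) lie above 0 before any adjustment for the number of genes tested, and the others include 0.

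TSA1 (YML028W) encodes the main cytosolic peroxiredoxin of growing cells, which is also a chaperone. The wild-type cultures gave signals of 1464 and 2246, the mutant cultures 1446 and 1633. The wild-type replicates were 0.69 apart on the log2 scale and held both mutant arrays, 0.04 apart, between them. The strain difference was -0.13 (SE 0.30, interval -0.83 to 0.56, adjusted p = 0.944). Its sign turned on the wild-type array left out, at -0.48 when this was replicate 1 and 0.21 when it was replicate 2. TSA2 (YDR453C), its inducible paralogue, gave wild-type signals of 61.0 and 68.9 and mutant signals of 60.9 and 81.6. These signals overlapped, with a log2 difference of 0.22 (SE 0.20, interval -0.25 to 0.70, adjusted p = 0.803). That value shrank to 0.10 with wild-type replicate 1 left out and to 0.086 with mutant replicate 2 left out.

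TRX2 (YGR209C) encodes a cytosolic thioredoxin, an electron donor of peroxiredoxins and a standard Yap1 target. Wild-type signals of 634 and 664 stood against mutant signals of 489 and 697. Here the mutant replicates, 0.37 apart on the log2 scale, enclosed the wild-type ones, which were 0.14 apart. The difference was -0.05 (SE 0.20, interval -0.51 to 0.41, adjusted p = 0.977). Leaving out mutant replicate 1 gave 0.14 and leaving out mutant replicate 2 gave -0.23.

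CTT1 (YGR088W) encodes catalase T, the cytosolic catalase and a standard target of Msn2 and Msn4. Catalase T signals were 173 and 134 for wild-type and 184 and 256 for mutant cultures. Both mutant values were above both wild-type values, though mutant replicate 1 and wild-type replicate 1 were close as deposited. After centring, the gap between the nearest arrays of the strains was 0.30 on the log2 scale, about the size of the gaps between replicates, 0.30 for the wild-type pair and 0.34 for the mutant pair. The log2 difference was 0.61 (SE 0.19, interval 0.18 to 1.05) with an unadjusted p of 0.0121 and an adjusted p of 0.457. Leaving out single arrays moved it between 0.44, with mutant replicate 2 left out, and 0.78, with mutant replicate 1 left out.

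CTA1 (YDR256C) encodes catalase A of peroxisomes and mitochondria, which is induced by fatty acids. It was dim in every culture, at 12.8 and 13.1 for wild-type and 12.2 and 13.4 for mutant cultures. These values overlapped, and with no filter the log2 difference was 0.08 (SE 0.24, adjusted p = 0.959), at a signal where the array limits what can be seen. Of 8 genes of peroxisomal fatty acid beta-oxidation, the pathway whose peroxide catalase A removes, 3 were also under the filter (POX1, PXA1 and PXA2). Their signals ran from 4.70 to 18.5. The other 5 were above the filter, and 1080 of all 5656 genes lay under it.

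SOD1 (YJR104C) encodes the copper-zinc superoxide dismutase of the cytosol. Wild-type signals of 1271 and 1543 compared with mutant signals of 1139 and 1268. As deposited, both mutant signals were below both wild-type signals, but after centring they lay between them. The log2 difference was -0.11 (SE 0.24, interval -0.66 to 0.43, adjusted p = 0.938), or -0.29 with wild-type replicate 1 left out and 0.061 with wild-type replicate 2 left out. SOD2 (YHR008C) encodes the manganese enzyme of the mitochondrial matrix. The wild-type cultures read 559 and 723 for SOD2, the mutant cultures 389 and 632. On the log2 scale the wild-type replicates were 0.44 apart and the mutant replicates 0.56 apart. The strain difference was -0.25 (SE 0.25, interval -0.82 to 0.32, adjusted p = 0.817). With mutant replicate 2 left out the difference was -0.53, and with mutant replicate 1 left out 0.031.

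Across the 8 tested genes the median log2 difference was -0.03, beside -0.01 over all tested genes, and the values ran from -0.25 for SOD2 to 1.01 for GPX1. The strains did not overlap for 2 of the 8, against 39.4% of all tested genes. Both were higher in the mutant, a direction in which 21% of all tested genes did not overlap. At an unadjusted p under 0.05, the 2 higher genes stand beside 4.92% of all tested genes in that direction. None of the 8 was lower at that level, beside 3.61%. As the genes were chosen with earlier results known, these shares describe the set and do not test it. The median gap between replicates over the 8 genes was 0.29 between wild-type and 0.22 between mutant arrays on the log2 scale. Their median absolute strain difference was 0.18. Over all tested genes these medians were 0.28 (wild-type gap), 0.14 (mutant gap) and 0.17 (absolute strain difference). A gap is between single arrays and a strain difference is between means of 2 arrays, so their sizes are not directly comparable.

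**Figure D3:**
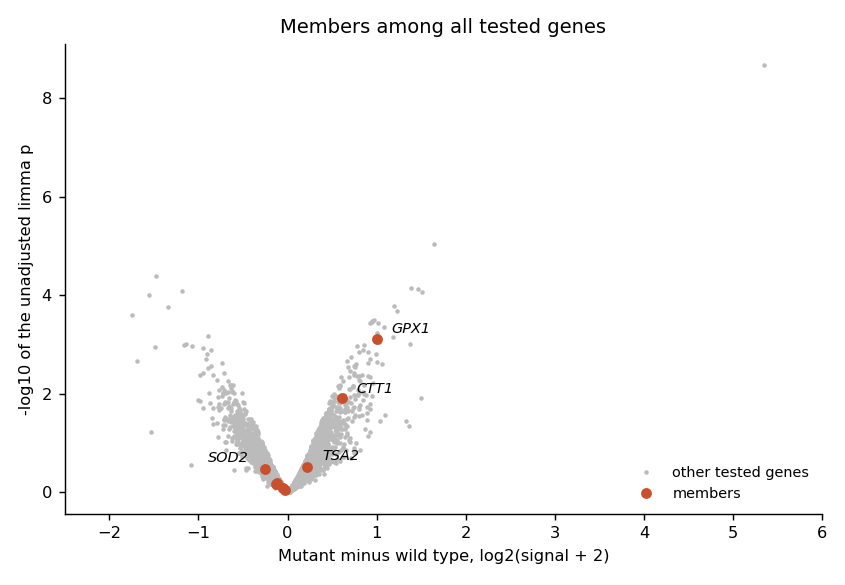
Each of the 4576 tested genes by its mutant minus wild-type difference (x axis, log2) and the −log10 of its unadjusted limma p (y axis), with the 8 tested genes of the set in orange and 4 of them labelled. GPX1 and CTT1 lie on the upper right side of the cloud, and the rest lie near its foot; the point at the far right is URA3.

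**Figure D4:**
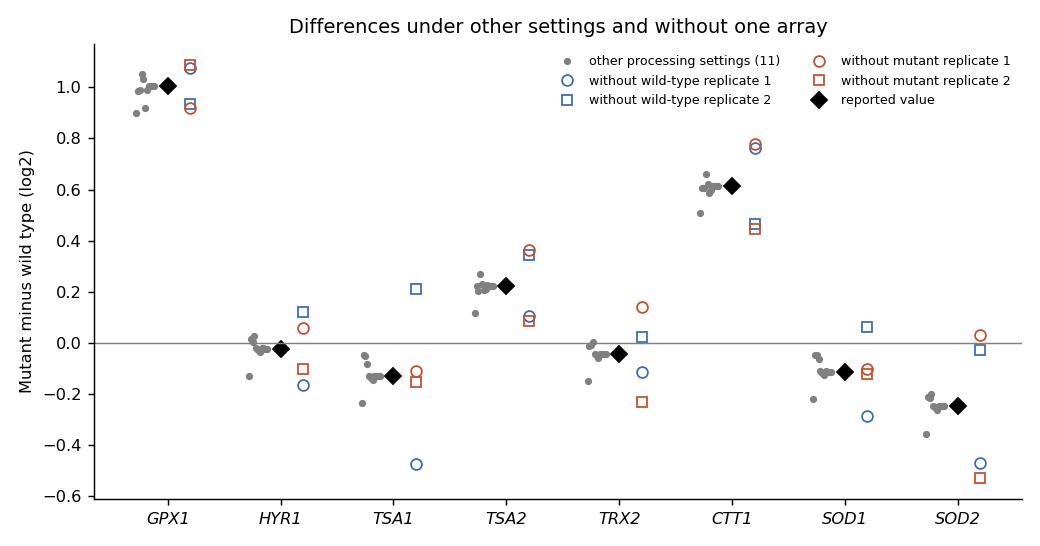
Mutant minus wild-type log2 difference of each tested gene as reported (black diamonds), under 11 other processing settings (grey points) and without 1 of the 4 arrays (open symbols). GPX1 stays between 0.90 and 1.09 throughout, whereas HYR1, TSA1, TRX2, SOD1 and SOD2 take either sign depending on the array left out.

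The wider defence system was read through 76 further genes in 10 lists by role, of which 68 were tested. These lists too were chosen with earlier results of these data known, so their shares are descriptions. Limma called 0 of the 68 at an adjusted p under 0.05, and 5 higher and 2 lower genes had an unadjusted p under 0.05, beside 4.92% and 3.61% of all tested genes. Their median difference was -0.02. Among the other electron carriers of the thioredoxin system, 0 of 4 passed, and the values ran from -0.17 for TRR1, the cytosolic thioredoxin reductase gene, to 0.29 for TRR2, its mitochondrial counterpart. With single arrays left out, TRR1 ran from -0.29 to -0.046. Leaving out mutant replicate 1 put TRR2 at 0.67, and leaving out mutant replicate 2 at -0.095. The 4 other peroxidase genes lay closer together, with 0 past the test, from -0.14 for the peroxiredoxin gene AHP1 to 0.11 for the nuclear peroxiredoxin gene DOT5, each of which changed sign without 1 of the arrays. In the list on repair of oxidised thiols and methionine, 0 of 3 passed, and the methionine sulfoxide reductase genes MXR1 and MXR2 marked its ends at 0.19 and -0.08, the latter 0.10 without wild-type replicate 2.

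The glutathione list held the difference nearest in size to that of GPX1. GTT2, a glutathione S-transferase gene, gave signals of 34.9 and 38.8 for wild-type and 71.6 and 68.0 for mutant cultures. Both mutant cultures were again above both wild-type cultures, with a log2 difference of 0.99 (SE 0.21, 1.99-fold, adjusted p = 0.192). GSH1, which encodes the first enzyme of glutathione synthesis, and the transferase gene ECM4 differed by 0.80 (SE 0.27) and 0.47 (SE 0.16), both at an adjusted p of 0.492. These were chosen for mention after their values were seen, as the list's other genes with an unadjusted p under 0.05. Also at that level, in lists described below, were HAP1, HSP26, HEM12 (-0.35) and TPS1 (0.44). In the glutathione list 3 of 13 tested genes were higher at that level and 0 lower, beside 4.92% and 3.61% of all tested genes. Of the 13 tested genes of this list 0 passed the test, 8 differences were positive and 5 negative, the median was 0.02, and the glutaredoxin gene GRX4 was lowest at -0.26 (SE 0.18). GRX4 was at -0.084 with mutant replicate 1 left out and -0.44 with mutant replicate 2 left out.

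The list of superoxide dismutase helpers and copper delivery genes had a median of -0.28 over 4 genes, 0 of them past the test. The copper transporter gene CTR1 was lowest at -0.49 (SE 0.23, adjusted p = 0.614), with wild-type signals of 49.8 and 67.0 and mutant signals of 36.5 and 38.5, which did not overlap. Its difference was -0.74 with wild-type replicate 1 left out and -0.25 with wild-type replicate 2 left out. ATX1, a copper chaperone gene, was highest at 0.06 (SE 0.19), or -0.05 without centring. It was -0.14 with wild-type replicate 2 left out.

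Transcripts of the regulators did not pass the test either, 0 of 8. MSN4 was highest at 0.28 (SE 0.23) and HAP1, the haem-responsive activator of respiratory genes and CTT1, lowest at -0.66 (SE 0.21, adjusted p = 0.457). Wild-type HAP1 signals of 474 and 359 did not overlap with the mutant signals of 194 and 299. HAP1 has 3 probe sets, and the mean of those that passed the filter gave a difference of -0.32. The HAP1 difference ran from -0.90 to -0.42 with single arrays left out, the latter with mutant replicate 1 left out. Among 7 other Yap1 targets, 0 passed, within a range from -0.21 for the transporter gene ATR1 to 0.21 for the NADPH oxidoreductase gene OYE3. OYE3 was at 0.015 with wild-type replicate 1 left out and 0.40 with wild-type replicate 2 left out. The remaining Yap1 target, the drug transporter gene FLR1, lay under the filter with wild-type signals of 17.1 and 11.9 and mutant signals of 26.3 and 37.5. Without a filter FLR1 differed by 1.13 on the log2 scale (SE 0.25, adjusted p = 0.245), a value singled out after it was seen. Peroxisomal beta-oxidation genes showed 0 of 5 past the test, from -0.31 for the thiolase gene POT1 to 0.22 for PEX11, a gene of peroxisome division. Of these, MSN4, ATR1 and POT1 took either sign depending on the array left out, and PEX11 ran from 0.13 to 0.32. Haem synthesis, which supplies the cofactor of both catalases, showed 0 of 8, from -0.53 for HEM13 (SE 0.24, adjusted p = 0.610) to 0.32 for HEM14. HEM13 was at -0.21 with mutant replicate 1 left out and -0.84 with mutant replicate 2 left out. HEM14 was at 0.16 with wild-type replicate 1 left out and 0.48 with wild-type replicate 2 left out.

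Of 12 stress genes of the Msn2 and Msn4 type, the group to which CTT1 belongs by its control, 0 passed the test. The median difference was 0.19, with 7 positive and 5 negative values, and 5 genes did not overlap between the strains, all higher in the mutant, beside 39.4% of all tested genes in either direction and 21% in that one. The small heat shock protein gene HSP26 was highest at 0.66 (SE 0.20, adjusted p = 0.457), with wild-type signals of 108 and 141 and mutant signals of 158 and 209. Its difference was 0.43 with wild-type replicate 1 left out and 0.89 with wild-type replicate 2 left out. The Hsp70 gene SSA3 was lowest at -0.20 (SE 0.29), or -0.66 with wild-type replicate 1 left out and 0.25 with wild-type replicate 2 left out.

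**Figure D5:**
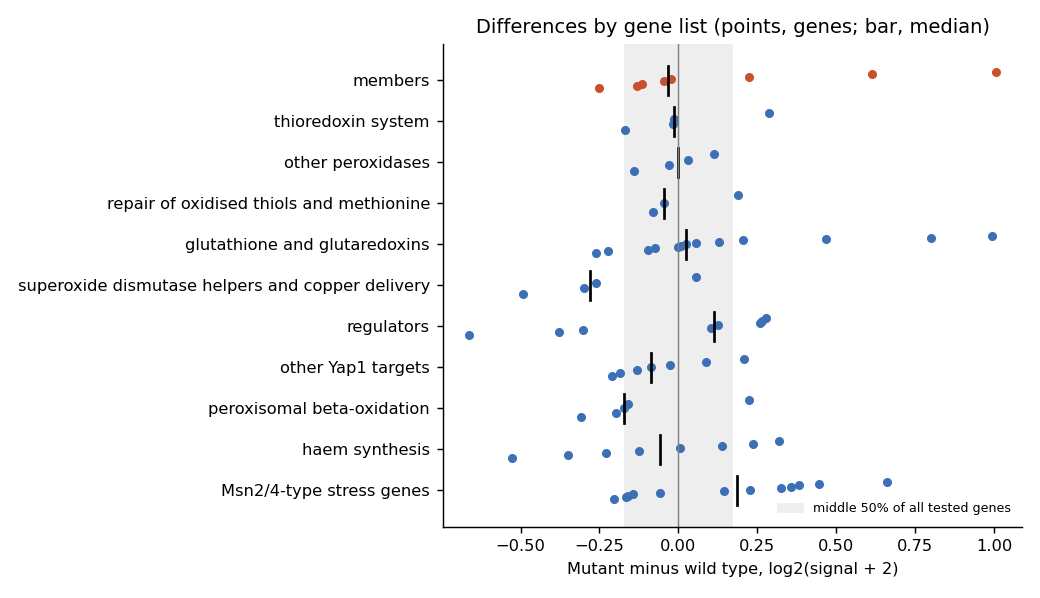
Mutant minus wild-type log2 difference of every tested gene of the 10-gene set (orange) and of 10 further lists (blue), with a black bar at each median and a grey band over the middle 50% of all tested genes. Most points lie in or near the band, and GPX1 (1.01) and GTT2 (0.99) lie farthest to the right.

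Neighbouring genes were read as well. The 10 genes have 20 flanking protein-coding genes by gene order, of which 17 were tested and 0 passed. Their differences ran from -0.79 to 0.65 with a median of -0.15. The lowest was PDC6, a pyruvate decarboxylase gene beside CTT1, at -0.79 (SE 0.32, adjusted p = 0.558), opposite in sign to CTT1. The highest was PAN3, which encodes a subunit of a poly(A) nuclease and lies beside GPX1, at 0.65 (SE 0.22, adjusted p = 0.492). The other neighbour of GPX1, TCD2, was at -0.20 (SE 0.19), and RMD5 beside CTA1 at 0.62 (SE 0.22). These 4 neighbours were named after their values were seen.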

How the data were processed

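The deposited values are intensities, 1 linear signal per probe set and array, which the authors computed by MAS5, per the submitters' processing notes; its version and scaling target are not given in those notes. Values of the mutant arrays step by 0.0839 and 0.0960 instead of 0.1, all within 0.01 steps, so a factor per array may have been applied after MAS5. Of 9335 probe sets, 6504 carried 1 gene, 328 several, 2443 none, and 60 were controls. All 5656 genes matched the RefSeq table of assembly R64 by gene ID; it served for names and gene order only.

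Groups came from the sample titles. Signals became log2(signal + 2), with 2 close to the 10th percentile of all signals, so folds of dim genes are understated. The dimmest 25% of probe sets by mean signal were dropped, the brightest probe set stood for a gene (190 tested genes had several left), and each array was centred on its median. The strains were tested in R 4.3.3 by limma 3.58.1 (lmFit, eBayes with trend, 2 residual and 5.63 prior degrees of freedom), two-sided, with Benjamini-Hochberg adjustment over 4576 genes at a threshold of 0.05. The fit was tested on simulated data. The number of arrays limits precision, and p-values measure the spread between arrays labelled as replicates. The sample titles number the replicates and do not say whether these were separate cultures.

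The genes of the set, the further lists and the naming rule (all 10 genes, and the highest, the lowest and any called gene of each list) were chosen with earlier results of these data known. Figures used matplotlib 3.10.9. Alternatives are given in the closing section. Planned promoter motif counts and protein identities were not run here.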

Additional observations from a re-analysis of the deposited data

How the results depend on the processing

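The count of tested set genes past the threshold was 0 with all arrays, 0 without any one array, and 0 under every other setting run except the replicate block, which gave 1 (GPX1, adjusted p = 0.0449). The labels do not say whether same-numbered cultures were handled together. Deviations of same-numbered arrays correlated at 0.044 over genes, which cannot exclude a pairing. The block result is given here once, with 32 genes called in all. The number of genes past the threshold, 2 as reported, was 11 without centring, 9 with quantile normalisation, 8 with cyclic loess, 5 with trimmed mean scaling, 7 with the lowest 50% left out, 9 with the mean of probe sets and 1 without a variance trend, and 1 to 21 without one array, in fits with 1 residual degree of freedom. The median of the set genes ranged from -0.14 to 0.17 without one array. GPX1 had adjusted p-values from 0.0449 to 0.248 over 11 settings and 0.0759 to 0.603 without one array, and CTT1 from 0.203 to 0.560 over the 11 settings. HYR1 took the opposite sign with quantile normalisation (0.014), cyclic loess (0.0015) and trimmed mean scaling (0.027), TRX2 with trimmed mean scaling (0.0040) and ATX1 without centring (-0.051). The cause was not tested. Without one array, these took either sign: HYR1 (-0.17 to 0.12), TSA1 (-0.48 to 0.21), SOD1 (-0.29 to 0.061), SOD2 (-0.53 to 0.031), TRX2 (-0.23 to 0.14), TRR2 (-0.095 to 0.67), DOT5 (-0.027 to 0.25), AHP1 (-0.37 to 0.094), MXR2 (-0.26 to 0.10), ATX1 (-0.14 to 0.26), MSN4 (-0.026 to 0.58), ATR1 (-0.52 to 0.10), POT1 (-0.70 to 0.085) and SSA3 (-0.66 to 0.25). GPX2 and CTA1 lay under the filter on low signals, which limits what their values can show.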
